A study of Homo sapiens with 12 samples.

Results

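The BCL2 family regulates the mitochondrial pathway of apoptosis, and 10 of its genes are described here: BCL2, BCL2L1, MCL1, BCL2A1, BAX, BAK1, BBC3, PMAIP1, BCL2L11 and BID. They were chosen by name for their role, with earlier results of these data known. All 10 are among the 20003 genes with a value in these data, and all 10 passed the filter on low values in every comparison. Expression was measured by mRNA-seq as FPKM, that is, fragments scaled to the exon length of the gene and to the size of the library, in 12 samples. NB4 is a human line derived from acute promyelocytic leukemia and carries PML-RARα, the fusion that defines this disease. Kasumi-1 is a human acute myeloid leukemia line with the t(8;21) translocation and its AML1-ETO fusion gene. Each line had 3 control samples, which received DMSO, and 3 samples incubated with OGP46 at 1 μM, a kaurene diterpenoid made from oridonin. The labels give 48 h for control and OGP46 samples alike, although the study's own text is not uniform on the incubation time before sequencing. Each line stands for 1 leukemia, and the labels do not say whether samples of a group are separate cultures. The study speaks of independent experiments behind its sequencing figures without tying them to samples. Where samples share a culture, p-values measure only technical spread.

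Apoptosis through mitochondria is decided at the outer mitochondrial membrane. BCL2, BCL-XL (the product of BCL2L1), MCL1 and BFL-1 (the product of BCL2A1) keep the membrane intact by holding the pro-apoptotic members. BAX and BAK (the product of BAK1) form the pores through which cytochrome c leaves. The BH3-only proteins PUMA (BBC3), NOXA (PMAIP1), BIM (BCL2L11) and BID start the process, either by occupying the groove of the anti-apoptotic proteins or by activating BAX and BAK directly. NOXA binds mainly MCL1 and BFL-1. Myeloid leukemia cells often depend on MCL1, BCL2 or both, and inhibitors of BCL2 are used to treat acute myeloid leukemia. Gene-level FPKM do not separate isoforms, so long and short forms of MCL1 or BCL-XL, some of which act in opposite ways, are added together. RNA levels also do not give protein levels, which for MCL1 and NOXA are set in part by rapid protein degradation.

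NB4 cells incubated with OGP46 held more BBC3, PMAIP1 and BCL2A1 RNA than the NB4 controls, at 1.84, 1.69 and 1.57 times the control mean FPKM. MCL1 stood at 1.33 times, and BCL2 at 0.979 times, the control mean. In Kasumi-1 cells no member differed past the thresholds. The call for the first 3 genes depended on how the samples were treated in the model and on how they were scaled. With OGP46 and control samples compared as unpaired groups, 0 of 10 members passed an adjusted p of 0.05 and a log2 fold change of 0.58 (1.49-fold), where 1.56% of all 11750 genes tested in NB4 passed. That share depended on single samples. Leaving out any 1 of the 6 other than OGP46 sample 2 left at most 1 gene higher and 1 lower. Without OGP46 sample 2 the counts rose to 368 higher and 28 lower. With the replicate number of the labels as a block in the model, 3 of 10 passed, all 3 higher, where 6.21% of all genes passed. With the block and each sample centred on its median, only BBC3 of the members passed, beside 188 higher and 203 lower of all genes. With the block and TPM scaling, only BBC3 and PMAIP1 passed, beside 309 higher and 139 lower of all genes. All tests across genes are from limma on log2(FPKM + 0.1), with Benjamini-Hochberg adjustment over all genes tested. Fold changes on this scale understate the change of genes at low FPKM.

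The promoter windows of BCL2A1, BBC3 and PMAIP1 are printed because they are the members that passed in NB4 with the replicate block. Each is 300 bases from RefSeq on GRCh38.p14, from 250 bases before the annotated start site to 50 bases from that site on, read 5′ to 3′ on the strand of the gene. Capitals mark matches on either strand to 8 common motifs. These were the TATA box, searched as the letters TATAAA, the CCAAT box, which is named by its letters, and the GC box, searched as the letters GGGCGG. For the AP-1 site the letters were TGANTCA, for the core of the cyclic AMP response element (CRE) they were ACGTCA, and for the E-box they were CACGTG. The consensus decamer of p53 and the NF-kB site were searched as well. None of the stretches in capitals overlaps another in these 3 windows.
BCL2A1 (chr15:79971147-79971446, minus strand): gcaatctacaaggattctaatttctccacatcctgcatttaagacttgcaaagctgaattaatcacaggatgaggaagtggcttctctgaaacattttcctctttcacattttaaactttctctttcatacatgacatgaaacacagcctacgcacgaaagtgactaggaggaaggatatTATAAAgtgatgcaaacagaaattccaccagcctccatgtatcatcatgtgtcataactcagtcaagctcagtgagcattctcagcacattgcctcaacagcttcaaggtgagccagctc
BBC3 (chr19:47232618-47232917, minus strand): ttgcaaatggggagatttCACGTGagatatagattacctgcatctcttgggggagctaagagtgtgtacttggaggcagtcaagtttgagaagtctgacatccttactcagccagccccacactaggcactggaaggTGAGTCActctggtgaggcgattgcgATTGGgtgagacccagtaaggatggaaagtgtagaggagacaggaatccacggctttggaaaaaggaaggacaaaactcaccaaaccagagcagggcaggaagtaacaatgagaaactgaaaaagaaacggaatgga
PMAIP1 (chr18:59899746-59900045, plus strand): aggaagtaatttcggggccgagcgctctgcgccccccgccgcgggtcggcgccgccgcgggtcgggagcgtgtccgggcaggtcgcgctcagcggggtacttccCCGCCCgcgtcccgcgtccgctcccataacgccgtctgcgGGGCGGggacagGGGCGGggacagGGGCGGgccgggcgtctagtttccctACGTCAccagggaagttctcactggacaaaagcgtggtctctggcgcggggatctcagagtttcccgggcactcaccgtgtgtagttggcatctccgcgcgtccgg

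These windows differ in composition. The BCL2A1 window is 41.0% G or C and the BBC3 window 48.0%, both under the median of 58.7% over all 35116 RefSeq windows, and the PMAIP1 window is 71.3%. The BCL2A1 window holds 1 TATA box, which begins 70 bases before the start site, and a TATA box is in 11.5% of all windows. In the BBC3 window are 1 E-box, 1 AP-1 site 113 bases before the start site and 1 CCAAT box on the opposite strand, and these are in 7.26%, 7.71% and 34.6% of all windows. PMAIP1 has 4 GC boxes (45.0% of windows hold at least 1) and 1 CRE core, which 7.98% of windows hold. No match to the p53 decamer (6.63% of windows) or the NF-kB site (11.3% of windows) lies in the 3 windows. A match is a run of letters and not a measured site, and the files hold no binding data. RefSeq windows were matched for 9 of 10 members, all but MCL1.

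The level of each gene was compared within and between the 4 groups first. MCL1 had the highest FPKM of the 10 and BAX the second highest in every group, and neither overlapped its neighbour in this order. In the NB4 controls BID, BAK1, PMAIP1, BCL2L1, BCL2 and BCL2L11 followed. PMAIP1 overlapped BCL2L1, and BCL2L1 overlapped BCL2. BBC3 and BCL2A1 were lowest and overlapped each other. In the Kasumi-1 controls the order after BAX was PMAIP1, BID, BCL2L1, BAK1, BCL2L11, BCL2, BBC3 and BCL2A1, and only the pairs BCL2L1 and BAK1, and BCL2L11 and BCL2, overlapped. Within each sample MCL1 stood between percentiles 94.8 and 97.1 of all genes. BCL2A1 in Kasumi-1 cells lay at or below percentile 44.1.

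**Figure D1:**
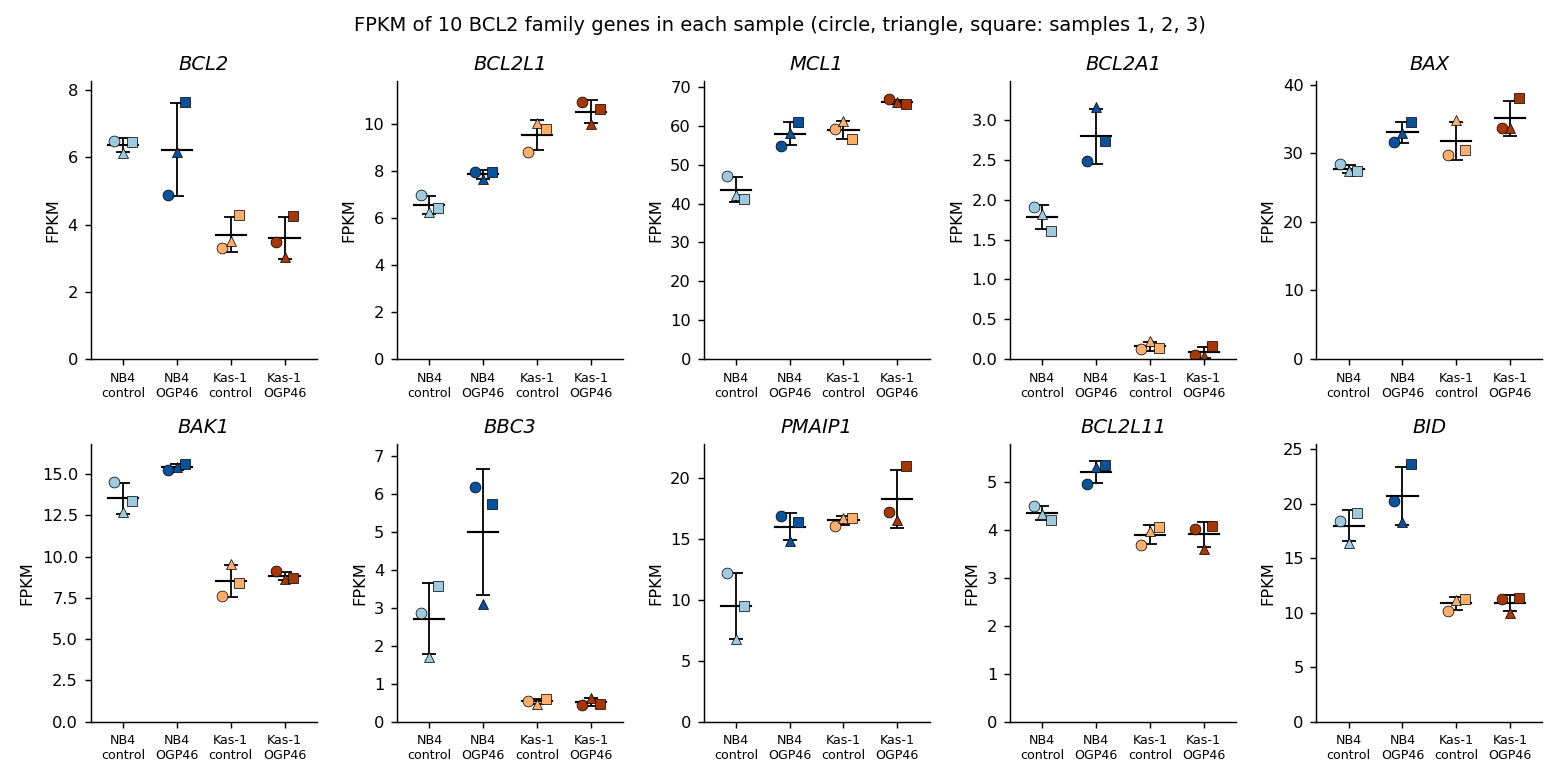
FPKM (linear axes from 0) of the 10 genes in each of the 12 samples, with the mean (long bar) and SD (error bar) of 3 samples per group. BCL2A1 and BBC3 are near 0 in all 6 Kasumi-1 samples, and MCL1 reaches 54.9 to 60.9 FPKM in the NB4 samples with OGP46 against 41.2 to 47.2 FPKM in their controls.

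Of the anti-apoptotic genes, MCL1 made up most of the RNA. Its share of the summed FPKM of BCL2, BCL2L1, MCL1 and BCL2A1 was 74.7% ± 0.722 (SD, n = 3) in NB4 controls and 77.5% ± 0.648 (SD, n = 3) under OGP46. The Kasumi-1 shares were 81.5% ± 1.48 and 82.3% ± 1.08 (SD, n = 3 each). The NB4 samples with OGP46 (76.9% to 78.2%) lay above all 3 NB4 controls (73.97% to 75.4%), and the Kasumi-1 groups overlapped. The share of BCL2 in NB4 was 10.9% ± 0.631 in controls and 8.27% ± 1.35 with OGP46 (SD, n = 3 each). Scaling a sample by 1 factor leaves these shares as they are. They were not computed under quantile normalization, and no test was made on them.

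**Figure D2:**
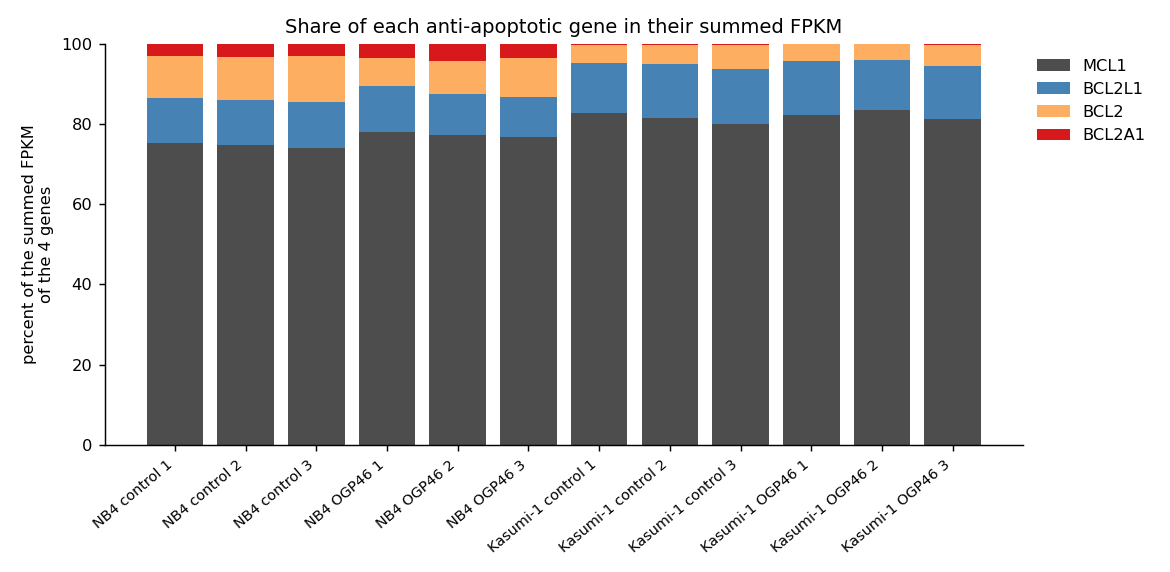
Percent of the summed FPKM of 4 anti-apoptotic genes that each gene contributed, 1 bar per sample. MCL1 takes 73.97% to 83.5% in the 12 samples, and BCL2A1 2.90% to 4.22% in NB4 and 0.0539% to 0.305% in Kasumi-1.

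MCL1, which protects myeloid cells and whose product turns over quickly, gave 47.2, 42.3 and 41.2 FPKM in NB4 controls 1 to 3 and 54.9, 58.1 and 60.9 FPKM in NB4 OGP46 samples 1 to 3. The 2 groups did not overlap, and each OGP46 sample was above the control of the same number. The log2 fold change was 0.41 (standard error 0.082), with an adjusted p of 0.0450, so MCL1 was past the threshold on p and under the minimum change (block: adjusted p 0.00786). Without the block the adjusted p was 0.0560 to 0.181 when 1 sample was left out, 0.126 with TPM scaling and 0.210 with median centring, where the change was 0.19. Over all alternatives it ran from 0.00402 to 0.210. In Kasumi-1 MCL1 gave 59.2, 61.3 and 56.6 FPKM in the controls and 66.8, 66.0 and 65.6 FPKM with OGP46. These groups did not overlap either, but the log2 fold change was 0.17 (standard error 0.056) with an adjusted p of 0.206. The alternatives gave adjusted p-values from 0.0181 to 0.577 for this difference.

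BCL2A1, a target of NF-kB that is expressed in myeloid cells, gave 1.91, 1.82 and 1.61 FPKM in NB4 controls and 2.49, 3.17 and 2.74 FPKM with OGP46. All OGP46 samples were higher than all controls. The log2 fold change was 0.62 (standard error 0.13) with an adjusted p of 0.0541, and 0.00560 with the block. Over all alternatives the adjusted p ran from 0.00560 to 0.248. In the block fit without pair 2 or without pair 3 the change was 0.55 and 0.57, under the minimum of 0.58, so the call was lost. It was also lost with the block and TPM scaling, where the change was 0.50, and with the block and median centring, where it was 0.40. In Kasumi-1 the gene was near 0, with 0.126, 0.229 and 0.133 FPKM in controls and 0.0456, 0.0426 and 0.161 FPKM with OGP46. OGP46 samples 1 and 2 were below all 3 controls and sample 3 was between them, and the difference of -0.56 (standard error 0.32) had an adjusted p of 0.426.

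BCL2, the target of BH3-mimetic drugs such as venetoclax, gave 6.49, 6.13 and 6.47 FPKM in NB4 controls and 4.88, 6.17 and 7.65 FPKM with OGP46. The controls were close together and the OGP46 samples lay on both sides of them, so the SD was 0.200 FPKM in controls and 1.38 FPKM with OGP46. The log2 fold change was -0.053 with a 95% interval of -0.40 to 0.30, and without OGP46 sample 1 it turned to 0.11. In Kasumi-1 BCL2 gave 3.30, 3.52 and 4.29 FPKM in controls and 3.48, 3.04 and 4.26 FPKM with OGP46. Those values overlapped, and the log2 fold change was -0.045 with a 95% interval of -0.35 to 0.26, which became 0.063 without control 3 and 0.066 without OGP46 sample 2.

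The ratio of MCL1 to BCL2, taken within each NB4 sample, was 7.27, 6.89 and 6.37 in the controls and 11.2, 9.42 and 7.97 with OGP46. All OGP46 samples had a higher ratio than all controls. In Kasumi-1 the ratio was 16.2 ± 2.61 in controls and 18.8 ± 3.19 with OGP46 (SD, n = 3 each), and the groups overlapped. Of the other ratios computed in NB4, BAX to BCL2 and BCL2A1 to MCL1 were also higher in all OGP46 samples than in all controls. The ratio of PMAIP1 to MCL1 overlapped (0.161 to 0.259 in controls, 0.255 to 0.308 with OGP46). Those of BBC3 to MCL1 and BBC3 to BAX overlapped as well. None of these ratios was tested, and the share of all gene pairs that separate in this way was not computed.

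BCL2L1, whose long product BCL-XL supports survival, gave 6.99, 6.27 and 6.41 FPKM in NB4 controls and 7.97, 7.65 and 7.95 FPKM with OGP46. The groups did not overlap, and the log2 fold change of 0.26 (standard error 0.088) had an adjusted p of 0.110. That change lay 0.081 above the median of all NB4 genes. Under median centring BCL2L1 was at 0.038 (adjusted p 0.815). In Kasumi-1 it gave 8.82, 10.03 and 9.79 FPKM in controls and 10.96, 9.997 and 10.6 FPKM with OGP46. OGP46 samples 1 and 3 were above all controls and sample 2 was level with control 2, and the adjusted p was 0.382.

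BAX and BAK1, the effector genes, did not pass in either line. BAX gave 28.4, 27.4 and 27.4 FPKM in NB4 controls and 31.6, 32.9 and 34.6 FPKM with OGP46, groups that did not overlap. BAK1 gave 14.5, 12.7 and 13.4 FPKM and 15.3, 15.5 and 15.6 FPKM, again without overlap. The log2 fold changes were 0.25 (standard error 0.073, adjusted p 0.0851) for BAX and 0.19 (standard error 0.083, adjusted p 0.166) for BAK1. With the block BAX had an adjusted p of 0.0488, under the minimum change, and BAK1 0.130. Against the median change of all NB4 genes, 0.18 on the log2 scale, BAX lay 0.071 and BAK1 0.014 higher, and under median centring BAK1 was at -0.028.

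In Kasumi-1 the effectors overlapped between the groups. BAX gave 29.8, 34.9 and 30.5 FPKM in controls and 33.6, 33.6 and 38.0 FPKM with OGP46. BAK1 gave 7.63, 9.53 and 8.41 FPKM and 9.13, 8.68 and 8.72 FPKM. Control 2 was the highest control for both genes. The log2 fold changes were 0.15 (adjusted p 0.392) for BAX and 0.058 (adjusted p 0.779) for BAK1, and BAK1 changed sign under median centring, under quantile normalization and without control 1.

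BBC3 encodes PUMA, a BH3-only protein known as a target of p53 and of FOXO factors. It gave 2.87, 1.71 and 3.58 FPKM in NB4 controls and 6.18, 3.10 and 5.74 FPKM with OGP46. OGP46 sample 2 was below control 3, so the groups overlapped, and sample 2 was the lowest of its group in both groups. Within pairs of the same number the log2 difference was 1.08, 0.82 and 0.67. As groups, the log2 fold change was 0.85 (standard error 0.31) with an adjusted p of 0.125. With the block the standard error was 0.11 and the adjusted p was 0.000572. The block fit kept the call without any 1 of the 3 pairs, with log2 fold changes of 0.74 to 0.95, and under median centring, where the change was 0.63. Over all alternatives the adjusted p of BBC3 in NB4 ran from 1.87e-06 to 0.399.

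PMAIP1 encodes NOXA, the BH3-only partner of MCL1 and BFL-1, and is known as a target of p53 and of ATF4. In NB4 it gave 12.2, 6.81 and 9.47 FPKM in controls and 16.9, 14.8 and 16.4 FPKM with OGP46. All OGP46 samples were above all controls, and sample 2 was again the lowest of both groups. The differences within pairs were 0.46, 1.11 and 0.78 on the log2 scale. The log2 fold change of 0.79 (standard error 0.19) had an adjusted p of 0.0659, and 0.00106 with the block. The block fit kept the call without any 1 of the pairs, with changes of 0.62 to 0.95, and lost it under median centring, where the change was 0.56 and under the minimum. Over all alternatives the adjusted p ran from 7.67e-06 to 0.236.

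In Kasumi-1 the differences in both genes were within the spread of the samples. BBC3 gave 0.545, 0.474 and 0.588 FPKM in controls and 0.449, 0.628 and 0.480 FPKM with OGP46. PMAIP1 gave 16.1, 16.8 and 16.7 FPKM and 17.2, 16.6 and 21.05 FPKM. OGP46 sample 3 was the highest for PMAIP1 and the groups overlapped for both genes. The log2 fold changes were -0.045 with a 95% interval of -0.44 to 0.35 for BBC3 and 0.14 with an interval of -0.060 to 0.33 for PMAIP1.

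BCL2L11 encodes BIM, which binds all anti-apoptotic members. It gave 4.50, 4.34 and 4.22 FPKM in NB4 controls and 4.96, 5.32 and 5.36 FPKM with OGP46, without overlap. The log2 fold change of 0.25 (standard error 0.093) had an adjusted p of 0.123 (block: 0.0820). That change lay 0.077 above the median of all NB4 genes. Under median centring BCL2L11 was at 0.034 (adjusted p 0.843). In Kasumi-1 it gave 3.68, 3.98 and 4.05 FPKM and 4.02, 3.61 and 4.09 FPKM, and the change was 0.00092 with a 95% interval of -0.20 to 0.20.

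BID links death receptors to mitochondria after cleavage by caspase 8. It gave 18.4, 16.4 and 19.2 FPKM in NB4 controls and 20.3, 18.3 and 23.6 FPKM with OGP46. Sample 2 was the lowest of both groups and the groups overlapped. The log2 fold change was 0.20 (standard error 0.11) with an adjusted p of 0.256, and -0.020 under median centring. In Kasumi-1 BID gave 10.2, 11.2 and 11.2 FPKM and 11.3, 10.01 and 11.4 FPKM, and the change was 0.0025 with a 95% interval of -0.17 to 0.17.

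**Figure D3:**
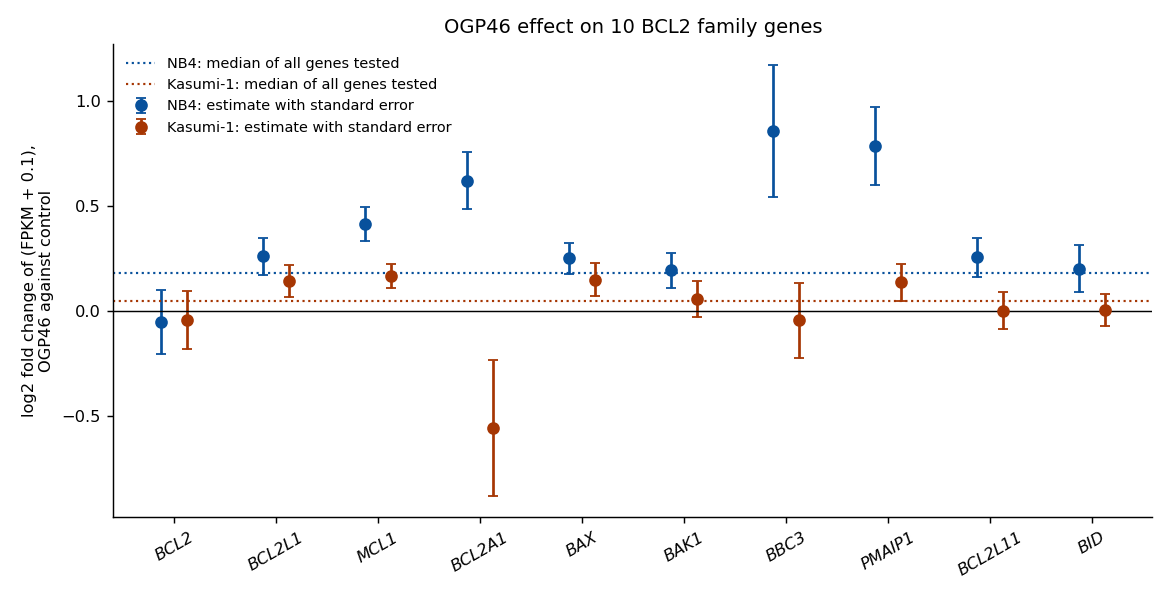
Log2 fold change of (FPKM + 0.1), OGP46 against control, for each gene in NB4 (blue) and Kasumi-1 (brown), with the standard error of the unpaired fit. The dotted lines are the medians of all genes tested, 0.18 in NB4 and 0.046 in Kasumi-1, and in NB4 BBC3, PMAIP1 and BCL2A1 stand highest and BCL2 lowest.

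As a group, 9 of 10 members were above 0 in NB4, which was also so for 81.9% of all genes tested. The median of the members was 0.26 and that of all genes 0.18 on the log2 scale. The FPKM sums were 248207 to 256268 in NB4 controls and 263341 to 291523 with OGP46. The median of all NB4 genes was 0.056 with TPM scaling and -0.042 with median centring. In Kasumi-1 the sums were 279879 to 310262 in controls and 279802 to 296455 with OGP46. The median of all genes there was 0.046, and 0.065 with TPM scaling. The part of the FPKM sums in these medians was not tested. In 7 of 10 members every OGP46 sample was above every control, where 32.7% of all genes were. At an unadjusted p under 0.05 were 8 of 10 members and 29.1% of all genes. In Kasumi-1, 0 of 10 members passed, where 0.0338% of 11835 genes passed, and with the block 0 of 10, where 0.617% passed. MCL1 was the 1 member without overlap in Kasumi-1, higher with OGP46, as were 17.4% of all genes (5.23% were lower without overlap). It was also the 1 member there with an unadjusted p under 0.05, and 15.6% of all genes had one.

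**Figure D4:**
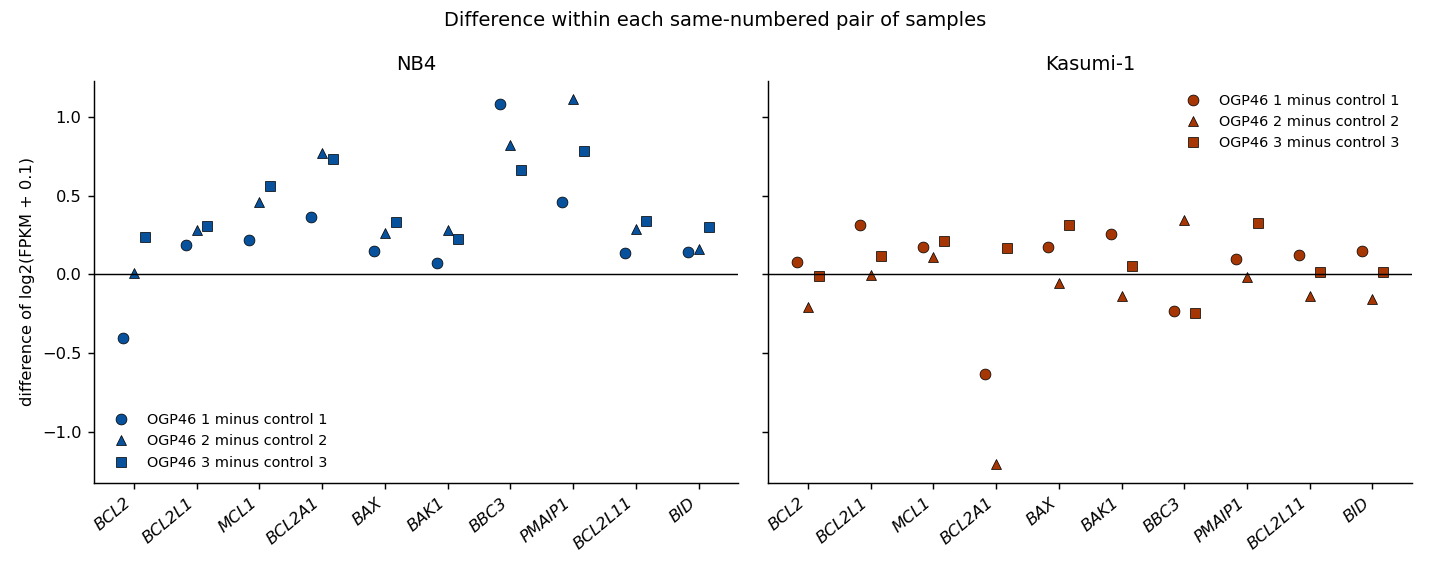
Difference of log2(FPKM + 0.1) between the OGP46 and the control sample of the same number, for each gene in NB4 (left) and Kasumi-1 (right). In NB4 the 3 differences are above 0 for 9 genes, all but BCL2, and in Kasumi-1 for MCL1 alone.

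The difference between the lines was tested as the interaction of line and treatment in 1 model of all 12 samples. No member passed an adjusted p of 0.05, and 0.0% of 12309 genes did (1348 genes had an unadjusted p under 0.05). With the block, 1.93% of all genes and 0 of 10 members passed. BCL2A1 differed between the lines by 1.18 on the log2 scale (standard error 0.33, adjusted p 0.228, block 0.0976), a value that ran from 0.55 with a pseudocount of 1 to 1.72 with one of 0.01. BBC3 differed by 0.90 (standard error 0.39, adjusted p 0.432, block 0.0582) and PMAIP1 by 0.65 (standard error 0.23, adjusted p 0.348, block 0.0755). With a pseudocount of 1 these were 0.70 and 0.60, above the value of BCL2A1. The adjusted p over all alternatives ran from 0.0689 to 0.530 for BCL2A1, from 0.0582 to 0.826 for BBC3 and from 0.0755 to 0.783 for PMAIP1. So the effect of OGP46 on these genes was not shown to differ between NB4 and Kasumi-1. MCL1 differed by 0.25 with a 95% interval of 0.047 to 0.45 and an adjusted p of 0.377. At an unadjusted p under 0.05 were 4 of 10 members and 10.95% of all genes.

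More members passed between the untreated lines than with OGP46 in either line, and the same held for all genes. Of the 10 members, 6 passed the thresholds between NB4 and Kasumi-1 controls, where 52.4% of 12302 genes passed. Higher in NB4 were BCL2A1 (1.78 ± 0.153 against 0.163 ± 0.0575 FPKM, SD, n = 3 each), BBC3 (2.72 ± 0.942 against 0.536 ± 0.0576 FPKM), BCL2 (6.37 ± 0.200 against 3.70 ± 0.521 FPKM), BID (18.0 ± 1.43 against 10.9 ± 0.603 FPKM) and BAK1 (13.5 ± 0.938 against 8.52 ± 0.955 FPKM). PMAIP1 was lower in NB4, at 9.51 ± 2.72 against 16.5 ± 0.372 FPKM. For these 6 genes every NB4 control was on the same side of every Kasumi-1 control, and the call held in each alternative in which the gene was tested.

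In log2 fold changes, the differences were 2.86 (adjusted p 1.38e-06) for BCL2A1, 2.09 (5.09e-05) for BBC3, 0.77 (2.29e-04) for BCL2, 0.72 (6.02e-05) for BID, 0.66 (2.80e-04) for BAK1 and -0.83 (0.00233) for PMAIP1. BCL2L1 and MCL1 were lower in NB4 by less than the minimum change. Their log2 fold changes were -0.53 (adjusted p 5.02e-04) and -0.44 (adjusted p 5.88e-04). BCL2L1 passed the minimum without NB4 control 1 (-0.58) or without Kasumi-1 control 1 (-0.59). BAX was 0.19 lower in NB4 (adjusted p 0.0516) and 0.015 higher with TPM scaling, and BCL2L11 differed by 0.15 with a 95% interval of -0.057 to 0.36.

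**Figure D5:**
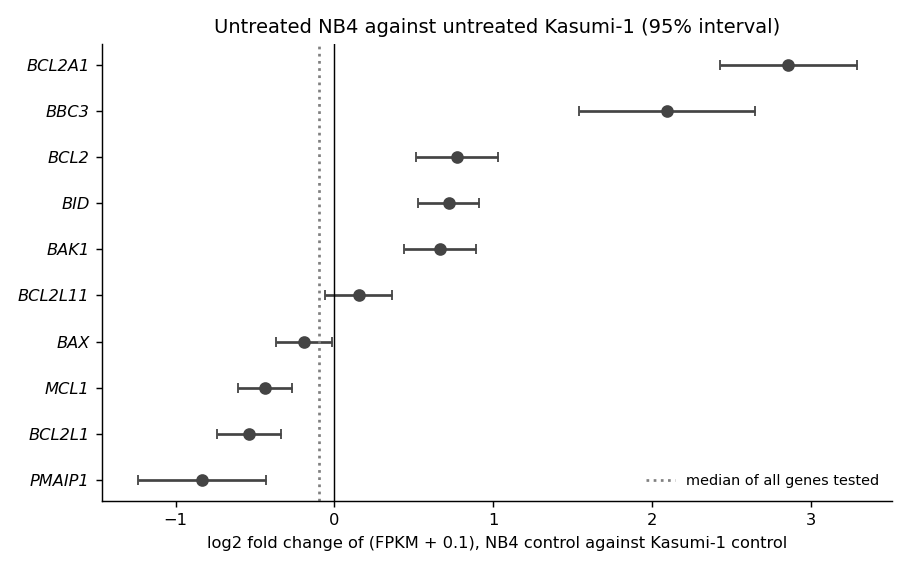
Log2 fold change of (FPKM + 0.1) of NB4 controls against Kasumi-1 controls, with 95% intervals, genes sorted by size. BCL2A1 (2.86) and BBC3 (2.09) lie farthest from 0, and the dotted line is the median of all 12302 genes, -0.098.

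Genes of the pathway around the family were counted from 6 lists, beside 6.21% of all genes that passed with the block in NB4. Of the other BCL2 family genes, 10 of 13 were tested in NB4 and 1 passed with the block and 0 without it. This was BMF, a BH3-only gene, at 2.42 ± 0.673 in controls and 4.53 ± 2.01 FPKM with OGP46 (log2 fold change 0.81, adjusted p 0.146, block 0.00125). Of 13 apoptosome and caspase genes, 0 passed without the block and 1 with it, APAF1, the scaffold of the apoptosome. It stood at 10.9 ± 1.70 and 17.3 ± 3.80 FPKM (0.65, adjusted p 0.0775, block 0.00125). Of 8 caspase inhibitors and their antagonists 1 passed with the block, BIRC3 (cIAP2), at 0.464 ± 0.330 and 0.999 ± 0.708 FPKM (0.87, adjusted p 0.447, block 0.00730). Of 7 death receptor and adaptor genes 1 passed with the block, TNFRSF10B, the TRAIL receptor DR5, at 6.42 ± 1.79 and 10.8 ± 2.01 FPKM (0.76, adjusted p 0.0814, block 4.40e-04). In the block fit of the difference between the lines, which 1.93% of all genes passed, 2 list genes passed. These were TNFRSF10B (0.72, adjusted p 0.0358, unpaired 0.395) and BAD, a BH3-only gene named after its values were seen (0.48, adjusted p 0.0374, unpaired 0.290).

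None of the 3 VDAC genes or the 5 genes of MCL1 turnover enzymes passed in NB4, with or without the block. In Kasumi-1 no gene of the 6 lists passed in either fit. The medians of the lists in NB4 lay between 0.14 and 0.30 on the log2 scale, beside 0.18 for all genes.

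Markers of cell identity were checked in the same samples. Both lines expressed 5 myeloid markers, with sums of 1744 to 3501 FPKM in the NB4 and 4250 to 5260 FPKM in the Kasumi-1 samples. Most of these sums was MPO, with means of 2896 and 2095 FPKM in NB4 and 5024 and 4422 FPKM in Kasumi-1, control and OGP46. CD33 means were 8.08 to 11.1 FPKM in the 4 groups. Of 5 NB4 markers, 3 passed higher and 1 lower in NB4 than in Kasumi-1 controls, where 52.4% of all genes passed. Their summed FPKM was 37.9 to 61.4 in NB4 controls and 20.6 to 24.0 in Kasumi-1 controls. HGF averaged 8.84 FPKM in NB4 and 13.5 FPKM in Kasumi-1 controls, and PML 6.05 and 6.58 FPKM. The summed FPKM of 7 Kasumi-1 markers was 0.804 to 3.89 in NB4 controls and 0.795 to 1.42 in NB4 OGP46 samples, and 242 to 310 in Kasumi-1. NB4 control 3 held the most, with a median of 1.35% of the Kasumi-1 level, and the other NB4 samples 0.0742% to 0.370%. With that share of Kasumi-1 signal subtracted, 0 of 10 members passed in NB4 and 6 of 10 between the controls, as before. Of 10 monocyte and macrophage markers, 9 were tested in NB4 and 5 passed higher with OGP46 as unpaired groups, where 1.56% of all genes passed. With the block 7 passed, where 6.21% of all genes did. ITGAM was among them (2.74 ± 0.290 to 5.93 ± 0.861 FPKM). With TPM scaling, median centring or quantile normalization no gene passed as unpaired groups, these markers included. Leaving out any 1 sample other than OGP46 sample 2 left at most 1 of all genes higher. In Kasumi-1, 0 of the 6 markers tested passed. The summed FPKM of the 10 markers was 288 to 413 in NB4 controls and 296 to 406 with OGP46. Most of this sum was LYZ, which did not pass (means of 318.4 and 314.5 FPKM). Of 7 mature neutrophil markers, 4 were tested in NB4, and 0 passed without the block and 1 with it. This was MMP9, at 84.7 ± 32.8 in controls and 253.5 ± 117 FPKM with OGP46 (adjusted p 0.0796, block 1.08e-06). The part of these marker changes in the values of the 10 members was not tested, and in bulk samples fewer cells of a kind and less RNA per cell cannot be told apart. Of 4 T cell markers only CD3D was above the filter, at 13.5 to 20.5 FPKM in NB4 controls and 22.5 to 34.6 FPKM with OGP46. CD3D passed with the block and not without it (log2 fold change 0.72, adjusted p 0.0720, block 2.23e-04). CD2 and CD7 were at 0 in all NB4 samples. The 4 erythroid markers summed to at most 0.184 FPKM in any sample.

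The genes whose profile over the 12 samples was most like each member were found by Pearson's r of log2(FPKM + 0.1) among the 9943 genes that averaged 1 FPKM or more. For MCL1 they included NCKAP1L (r = 0.975), and they were for BCL2A1 SBF1 (0.996) and RGS14 (0.996), for BBC3 NFATC2 (0.992) and LYPD6B (0.991), and for PMAIP1 ITCH (0.979) and SUSD6 (0.965). BCL2 was most like NOM1 (0.964) and BCL2L1 most like UBE2Z (0.987). For BAX the value was highest with ADPGK (0.945), for BAK1 with RPL7L1 (0.993), for BCL2L11 with SEMA4D (0.982) and for BID with MCUR1 (0.992). The 12 samples fall into 2 lines with 6 samples each, so all points share the difference between NB4 and Kasumi-1, and no p is given.

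The positions of the genes on GRCh38, the build the labels name, place BCL2 (chr18:63123346-63320128) and PMAIP1 (chr18:59899948-59904306) on the same chromosome, as are BAX (chr19:48954815-48961798) and BBC3 (chr19:47220822-47232766). MCL1 lies at chr1:150574551-150579738 and BCL2A1 at chr15:79960889-79971446. Genes on the opposite strand overlap BCL2, BCL2L1, BCL2L11, BAK1 and BBC3 in the annotation. Whether the counting used strand is not given in the sources used here, so reads from opposite strands may not be separated there. Genes on the same strand overlap BCL2, MCL1, BBC3 and BID, and counting by strand would not separate their reads.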

How the data were processed

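Total RNA of NB4 and Kasumi-1 cells was made into mRNA libraries with a stranded kit. The authors deposited 1 FPKM value per gene symbol and sample, with no counts, so the depth is unknown and no interval for counting error is given. The submitters' processing notes name Trimmomatic, HISAT2, Cufflinks, HTSeq and hg38, with no version or role, and 632 deposited values lie above 0 and below 1e-04. Symbols that had been turned into dates, 27 per sample, were left out, which left 20003 genes.

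FPKM were compared as log2(FPKM + 0.1) by limma 3.58.1 in R 4.3.3 (empirical Bayes, mean-variance trend) for genes that averaged 0.1 FPKM or more in the samples fitted, with Benjamini-Hochberg adjustment over all of them. Calls needed an adjusted p under 0.05 and a log2 fold change of 0.58 in size, the interaction the adjusted p alone. The scripts were tested on simulated data. The members and lists were chosen with earlier results of these data known. Every member is named, and of a list each gene past the thresholds in either line, with or without the block.

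The study names no pairing. Control and OGP46 samples of the same number deviated together from their group means (r = 0.35, 0.62 and 0.20 in NB4 for numbers 1 to 3, and 0.22, 0.16 and 0.40 in Kasumi-1; each r was over 0.1, the bar used, but in NB4 the 0.20 of number 3 was under the highest r between different numbers, 0.22), so the numbers of the labels were taken to pair them, and the value with the replicate number as a block is given where it changes a call. Control samples of the 2 lines did not pair (r = -0.049 to 0.018). Alternatives changed the pseudocount (1 or 0.01), the filter (none, or a mean of 1 FPKM) and the scaling (TPM, median centring or quantile normalization). Others dropped the trend, fitted the 12 samples jointly, subtracted signal of the other line or left out each sample. Block fits without each pair were chosen after seeing the data. Gene positions are from GENCODE and promoter windows from RefSeq. Values of some genes are not reported here.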

Additional observations from a re-analysis of the deposited data

How the results depend on the processing

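With limma, 0 of 10 members passed in NB4 as unpaired groups. The count was 1 (BCL2A1) with a minimum mean of 1 FPKM, where 166 of 9513 genes passed higher and 7 lower. It was 3 with the replicate block (BCL2A1, BBC3 and PMAIP1), where 595 and 135 of 11750 genes did. With the block and median centring it was 1 (BBC3), beside 188 and 203 genes. With the block and TPM scaling it was 2 (BBC3 and PMAIP1), beside 309 and 139 genes. The joint model gave 2 (BBC3 and PMAIP1), beside 409 and 89 genes. Leaving out 1 sample gave 0 to 1, the 1 being BBC3 without OGP46 sample 2, where 368 and 28 genes passed. Block fits without 1 pair gave 2 to 3, beside 532 to 708 genes higher and 126 to 170 lower. The counts in Kasumi-1 and for the difference between the lines were 0 in every alternative, and between the controls 5 to 7, the 5 with a minimum mean of 1 FPKM, where BCL2A1 was not tested, and the 7 where BCL2L1 passed without control 1 of either line. The block changed no other call of a member.

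Some values near 0 changed sign. Under median centring, with or without the block, they were -0.028 for BAK1 and -0.020 for BID in NB4, and -0.0092 for BAK1, -0.066 for BCL2L11 and -0.064 for BID in Kasumi-1. Quantile normalization gave -0.011, -0.073 and -0.053 for the latter 3. Leaving out samples, BCL2 in NB4 ran from -0.21 to 0.12, and in Kasumi-1 the ranges were -0.17 to 0.066 for BCL2, -0.24 to 0.055 for BBC3, -0.041 to 0.15 for BAK1, -0.061 to 0.069 for BCL2L11 and -0.071 to 0.083 for BID. The difference between the lines turned, with or without the block, to -0.027 for BCL2L1, -0.043 for BAX and -0.010 for BAK1 with TPM scaling and to -0.033, -0.047 and -0.015 with median centring. Quantile normalization gave -0.035 for BCL2L1 and -0.059 for BAX, and for BCL2 leaving out samples gave -0.16 to 0.15. BAX between the controls was 0.015 with TPM scaling, with or without the block. The cause of these turns was not tested. Depth is unknown, and 3 samples a group limit the precision of every value.

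Over all genes in NB4, 170 were higher and 13 lower as unpaired groups, 595 and 135 with the block, and 188 and 203 with the block and median centring. As unpaired groups the count was 0 under TPM scaling, median centring and quantile normalization, 4 with no filter and 4 with no trend, 111 higher and 6 lower with a pseudocount of 1, and 409 and 89 in the joint model. Without OGP46 sample 2 it was 368 and 28, and without any other sample at most 1 and 1.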

Other observations

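Between the untreated lines, other BCL2 family genes also differed, chosen here after their values were seen. BCL2L10, an anti-apoptotic member, gave 6.42 to 6.88 FPKM in NB4 controls and 6.32 to 8.32 FPKM with OGP46, and it was listed at 0 in all 6 Kasumi-1 samples. BOK, a relative of BAX and BAK1, was at 0.0345 ± 0.0342 FPKM in NB4 and 1.95 ± 0.329 FPKM in Kasumi-1 controls (SD, n = 3 each). Its log2 fold change of -3.95 had an adjusted p of 6.65e-07 by limma. BIK, a BH3-only gene, was at 9.51 ± 2.48 and 17.3 ± 2.69 FPKM (-0.88, adjusted p 0.00171). BNIP3, which marks mitochondria for autophagy, was at 30.71 ± 1.88 and 17.02 ± 3.72 FPKM (0.87, adjusted p 6.21e-04). Of the 11 other family genes tested between the controls, 6 passed, 3 higher and 3 lower in NB4, where 52.4% of all genes passed. BMF was among the higher and BCL2L13 among the lower. OGP46 moved none of BCL2L10, BOK, BIK or BNIP3 past the thresholds in either line in which they were tested.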
